A study of Mus musculus with 3 samples.

Results

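Prnp encodes the cellular prion protein, PrPC, and was read here as 1 row of the 51912 genes counted in 3 single-cell libraries of mouse lymph node (LN) stroma. PrPC is a glycoprotein that is held on the cell surface by a glycosylphosphatidylinositol (GPI) anchor and binds copper. Its misfolded form is the infectious agent of prion diseases. Follicular dendritic cells (FDCs) are the stromal cells that hold antigen in B cell follicles through complement receptors. They can also carry Fc receptors, whose part in holding antigen the study calls less clear. FDCs are known as a site where prions accumulate outside the nervous system, and PrPC on the host's own stroma is needed for this. CR2 (encoded by Cr2) is the complement receptor with which FDCs hold immune complexes (ICs).

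The cells came from C57BL/6 mice carrying the transgene Tg(Cxcl13-Cre/tdTomato). The study used its red protein TdTomato to mark reticular cells of B cell follicles. All groups received antigen as ICs, and no library without ICs was analysed here. In the 2-IC group a first antigen-IC was given 7 days and a second one 24 h before analysis (2 libraries, replicate 1 and replicate 2), and in the 1-IC group 1 antigen-IC was given 24 h before (1 library). Live PDPN+ TdTomato+ cells, labelled as CD31- and CD45- too, were sorted from LNs. The samples came from 3 independent experiments, with LNs of 6 mice pooled per condition (6 to 7 per experiment by another account), and which of these make up a library is not given in the sources used here, nor is the age. The titles of both 2-IC libraries give the same scheme, but they also carry the tags Biotin24h (replicate 1) and Biotin7d (replicate 2). They were grouped by the scheme, and what the tags stand for is not described. A library is therefore 1 replicate, its barcodes are not replicates, and the spread between libraries may be technical.

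The libraries held 3790, 1029 and 667 barcodes and 20607903, 12788101 and 3766526 unique molecular identifiers (UMIs, 1 for each captured RNA molecule), in the order 2-IC replicate 1, 2-IC replicate 2 and 1-IC, which is kept throughout. Of these UMIs 3710, 1925 and 662 came from Prnp. Of 5486 barcodes, 78 sequences occurred in more than 1 library, 76 of them in both 2-IC libraries, and the shallower of the entries had a median of 1.90% of the UMIs of the deeper one. Values without these barcodes are given beside the main results. Barcodes were placed in classes by counts of marker genes that did not include Prnp. Stroma needed at least 3 UMIs of 17 stromal genes, more stromal than immune UMIs and no UMI of 13 genes of contaminating cells that the study also used. It was called Cr2+ with at least 1 Cr2 UMI (145, 34 and 50 barcodes, 229 in all) and Cr2- without one (1354, 348 and 261, 1963 in all). Immune barcodes had at least 5 UMIs of 19 immune genes and at least 2 times as many of these as of the stromal genes (712, 171 and 217, 1100 in all). They were present although the sort was on stromal markers.

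The Cr2+ barcodes carried the genes that mark FDCs. Of 12 FDC genes, 10 were called higher in Cr2+ than in Cr2- stroma by edgeR's quasi-likelihood test, among them Fcer2a, Fcgr2b, Cd200, Coch, Sox9 and Madcam1, and 2 (Vcam1 and Icam1) were not called. Of all genes tested, 7.88% were called higher. The 10 include Cr2, whose difference the gate fixes, and Clu and Mfge8, which had been used in the gate for stroma. Immune genes summed to 118 to 313 CPM (UMIs of a gene per 1000000 UMIs) in Cr2+ stroma and to 37.2 to 160 CPM in Cr2- stroma, against 10310 to 13380 CPM in immune barcodes. Of the 19 genes, 5 were at 0 in Cr2+ stroma (Ptprc, Cd79a, Cd79b, Cd3d and Trac), all of them genes that the gate excluded. The part of immune RNA in the levels of Prnp was not tested.

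Prnp lies on chromosome 2 of GRCm38, at chr2:131909928-131938429 on the plus strand (ENSMUSG00000079037). It has 3 exons. The coding sequence, chr2:131936430-131937191, lies within exon 3 (chr2:131936420-131938429), whose 3′ UTR (1238 bases) is where reads of a 3′ kit fall. A read-through gene on the same strand, Prn (ENSMUSG00000098754, listed as Gm44637 in the count tables), shares 61.8% of the bases of exon 1 and all of exon 2 but none of exon 3, and it had 0 UMIs in every library. The neighbouring paralog Prnd, which encodes doppel, also had 0 UMIs, and Sprn, which encodes shadoo, had 10 UMIs in all. Prnp was thus the member of its family that could be compared. Prn and Prnd end at the same base of the same strand (chr2:131956130), so a read at that end can match both genes. Whether their 0 UMIs reflect absent RNA was not tested.

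The 250 bases before the RefSeq start of Prnp are shown as the sequence next to the gene whose level is described, without a test of its activity. Capitals mark the letters GGGCGG, known as the GC box, on either strand. They also mark the CCAAT box on either strand, and none of these matches overlap. The window is chr2:131909678-131909927, plus strand, GRCm38.p6.
Prnp upstream: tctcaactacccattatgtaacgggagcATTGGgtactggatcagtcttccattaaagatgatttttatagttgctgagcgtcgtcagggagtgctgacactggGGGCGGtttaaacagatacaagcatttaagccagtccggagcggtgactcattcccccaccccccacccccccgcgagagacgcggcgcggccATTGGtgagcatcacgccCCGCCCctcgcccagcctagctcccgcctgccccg
The GC box occurred 2 times, beginning 146 and 35 bases before the start, and 16.7% of 32851 mouse promoter windows of the same length held it at least that often. The CCAAT box occurred 2 times as well, at 222 and 53 bases, which was true of 10.1% of the windows. TATAAA matched 1 time, on the minus strand (TTTATA as printed), at 186 bases. On either strand, 12.4% of windows have a match. TGACTCA matched 1 time, on the plus strand, at 102 bases (4.46%). CACGTG and TGACGTCA did not match. G and C made up 58.8% of the window, against a median of 52.4% over all windows.

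Prnp was several-fold higher in Cr2+ stroma than in Cr2- stroma and in immune barcodes. In Cr2+ stroma it stood at 956 CPM in 2-IC replicate 1, 683 CPM in 2-IC replicate 2 and 909 CPM in the 1-IC library, with exact 95% Poisson intervals of 891 to 1024, 606 to 767 and 808 to 1020. In Cr2- stroma it stood at 147, 127 and 126 CPM. The lowest Cr2+ value was thus above the highest Cr2- value, and the classes did not overlap. The means over libraries were 849 ± 146 CPM (SD, n = 3) and 133 ± 11.8 CPM (SD, n = 3). Within the libraries, the ratio was 6.50 (5.93 to 7.13), 5.36 (4.65 to 6.17) and 7.22 (6.03 to 8.66). The intervals cover counting error only.

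By edgeR's quasi-likelihood test on the UMIs summed per library and class, with the library as a block, Prnp was 6.20-fold higher in Cr2+ than in Cr2- stroma (log2 fold change 2.63, SE 0.19, Benjamini-Hochberg adjusted p = 2.76e-09). Of 11240 genes tested, 7.88% were called higher and 6.16% lower, and 253 genes had a larger fold change than Prnp. Without the shared barcodes the levels in Cr2+ stroma were 955, 743 and 909 CPM and the log2 fold change was 2.67. Cr2+ stroma without the rule on the contaminant genes had 613 ± 107 CPM (SD, n = 3), a log2 fold change of 2.17, and the call was kept in all 15 alternatives tried, of which the removal of doublets took no barcode from these classes. Because the same cells were divided by Cr2, more Prnp molecules per cell and a larger share of Prnp-rich cells in the class cannot be told apart in these sums.

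Cr2+ barcodes made up 4.10%, 3.24% and 8.53% of all UMIs of the 3 libraries, and 21.8%, 14.7% and 44.1% of the Prnp UMIs. Among the 20 barcodes with the highest Prnp share in each library (of those with at least 2000 UMIs in the 3 classes), 20, 16 and 17 were Cr2+, although Cr2+ barcodes were 121 of 1898, 33 of 509 and 42 of 461 of the barcodes ranked. The remaining 4 and 3 were Cr2- stroma, and no immune barcode was among them.

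**Figure D1:**
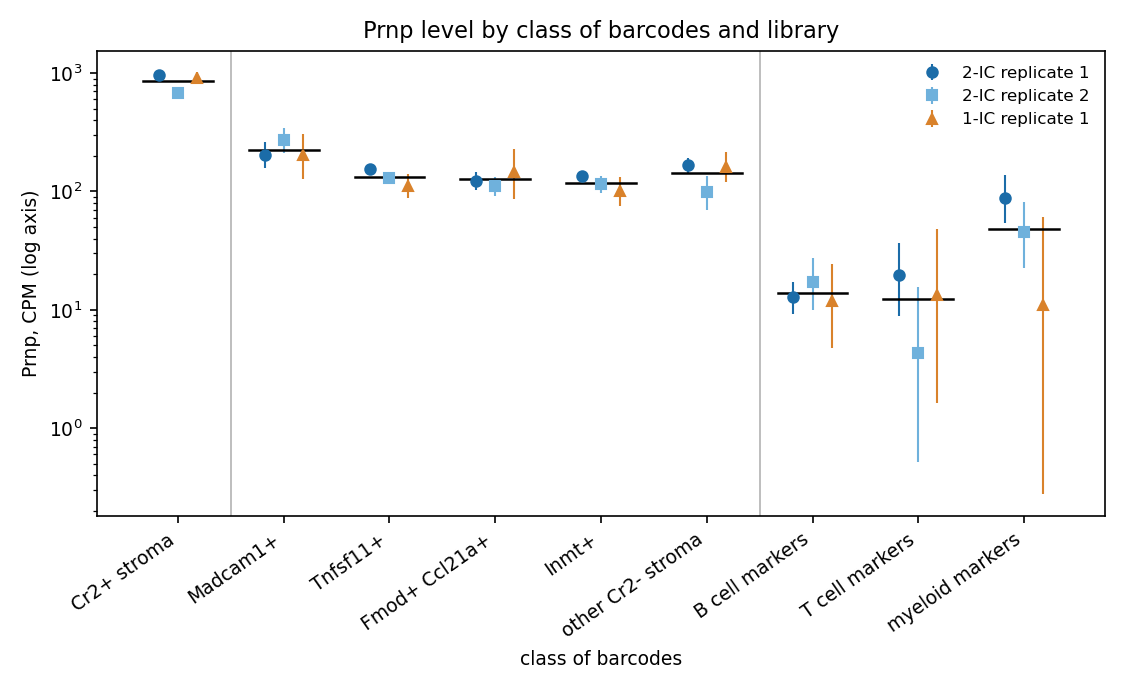
Prnp level in CPM of summed UMIs (log axis) for 9 classes of barcodes. Points are libraries with exact 95% Poisson intervals, and black bars are means over libraries with at least 10 barcodes. Cr2+ stroma lies at 683 to 956 CPM, above the Cr2- stroma classes (98.6 to 271 CPM), and B cell and T cell barcodes lie at 4.31 to 19.5 CPM.

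Among Cr2- stroma, Prnp was highest in barcodes with Madcam1, the adhesion molecule of marginal reticular cells and FDCs. The Madcam1+ barcodes (83 in all) had 203, 271 and 204 CPM of Prnp, with a mean of 226 ± 39.3 CPM (SD, n = 3). This was above the range of every other Cr2- class, so these did not overlap with Madcam1+. The other classes did overlap with each other. Barcodes with Tnfsf11, which encodes the cytokine RANKL, had 132 ± 20.8 CPM (591 barcodes). Barcodes with both Fmod and Ccl21a, genes of T-B border reticular cells, had 127 ± 17.5 CPM (215). Barcodes with Inmt, a gene of medullary reticular cells, had 117 ± 16.9 CPM (659). Cr2- stroma with none of these genes had 142 ± 37.9 CPM (415, SD over n = 3 libraries for each class).

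Against the Madcam1+ barcodes, Prnp in Cr2+ stroma was 4.71-fold, 2.52-fold and 4.46-fold higher in the 3 libraries. Against Tnfsf11+ barcodes, Madcam1+ barcodes had 1.32, 2.09 and 1.82 times as much Prnp, and in 2-IC replicate 1 the interval of this ratio (0.998 to 1.72) reached down to equality. No test was run between these finer classes, so their order is a description of 3 libraries.

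Immune barcodes had little Prnp. They stood at 20.1, 17.4 and 11.9 CPM (16.5 ± 4.15, SD, n = 3), below all Cr2- stroma values, and rested on 86, 30 and 10 UMIs. By edgeR's quasi-likelihood test Prnp was lower in immune barcodes than in Cr2- stroma (log2 fold change -2.67, SE 0.22, Benjamini-Hochberg adjusted p = 7.91e-10), as were 32.9% of the 11240 genes. Without the shared barcodes the log2 fold change was -2.80. The Cr2- sums are the same ones that Cr2+ stroma was compared with. The 3 immune classes overlapped. B cell marker barcodes had 12.8, 17.3 and 11.8 CPM. T cell marker barcodes had 19.5, 4.31 and 13.4 CPM, the last 2 from 2 UMIs each. Myeloid marker barcodes had 88.6, 45.2 and 10.9 CPM, the last from 1 UMI (interval 0.276 to 60.7).

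Stromal RNA was present in immune barcodes, since 929 of the 1100 held at least 1 UMI of the stromal genes. Prnp in immune barcodes was 13.6%, 13.7% and 9.47% of its level in Cr2- stroma. The corresponding share of the stromal chemokine gene Cxcl13 was 3.96%, 7.11% and 1.84%, and that of Cxcl12, Ccl19, Ccl21a, Fn1 and Col4a1 lay between 0 and 4.65%. Prnp thus had the larger share in each library. In 2-IC replicate 2 its immune level of 17.4 CPM fell below 11.9 CPM without barcodes with 3 or more glia UMIs. The shares were not compared without those barcodes. Prnp in B cell barcodes with a Cr2 UMI was 12.4, 23.5 and 29.3 CPM (11, 15 and 6 UMIs) and in those without one 13.0, 5.79 and 2.56 CPM (32, 2 and 1 UMIs), so that in 2-IC replicate 1 the order was the opposite of that in the others. The part of free RNA in these values was not tested.

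Detection showed the same order at equal depth. Prnp had at least 1 UMI in 77.2%, 88.2% and 78.0% of Cr2+ barcodes, in 49.6%, 70.7% and 44.8% of Cr2- barcodes and in 8.43%, 7.60% and 3.23% of immune barcodes. The classes differed in depth, with medians of 5166, 10682.5 and 4836.5 UMIs per Cr2+ barcode, 4719.5, 15097.5 and 6325 per Cr2- barcode and 3758.5, 6970 and 3291 per immune barcode. Drawing 1000 UMIs from each barcode, a Prnp UMI is expected in 49.4%, 42.9% and 47.6% of Cr2+ barcodes (46.6 ± 3.36%, SD, n = 3). Without the shared barcodes it was 47.0%. For Cr2- stroma the value was 12.7 ± 1.04% and for immune barcodes 1.39 ± 0.47%. The 3 classes did not overlap at 500, 1000 or 2000 UMIs per barcode. Leaving out barcodes under 1000 UMIs removed 8, 0 and 2 Cr2+, 70, 14 and 12 Cr2- and 20, 3 and 9 immune barcodes.

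**Figure D2:**
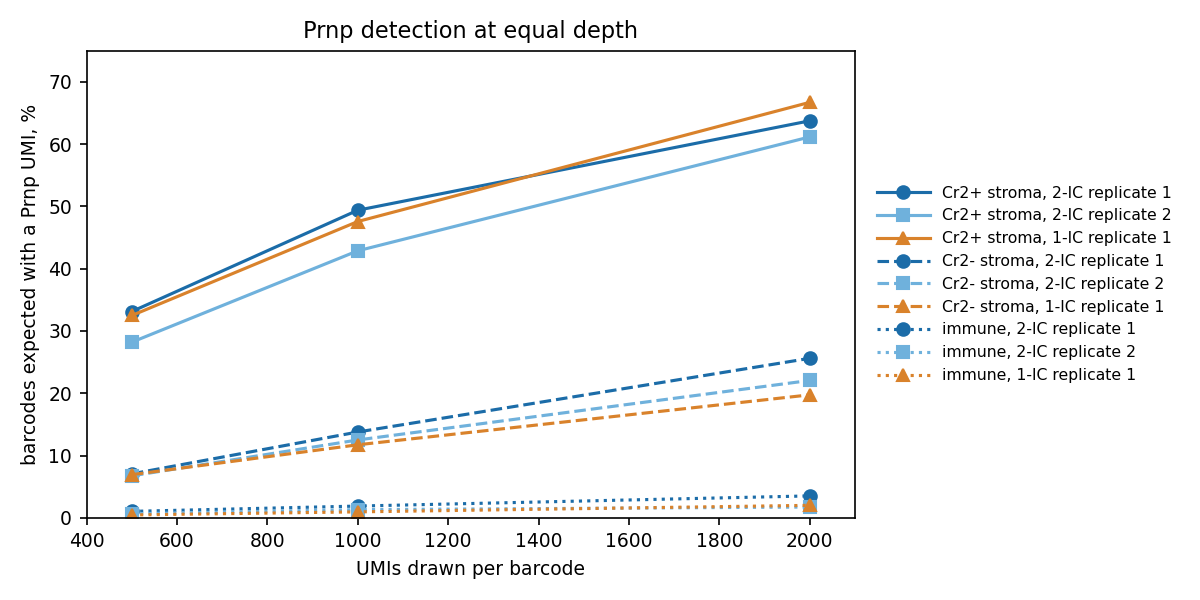
Share of barcodes expected to hold a Prnp UMI after drawing 500, 1000 or 2000 UMIs from each, by class and library. Cr2+ stroma rises from 31.3% to 63.9% as a mean over libraries, Cr2- stroma from 6.91% to 22.5% and immune barcodes from 0.719% to 2.42%.

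Prnp was unevenly spread over the Cr2+ barcodes. The median barcode had 7.25, 4.69 and 6.74 Prnp UMIs per 10000 UMIs, the highest had 59.7, 42.4 and 45.7, and 22.8%, 11.8% and 22% of the barcodes had none. A single rate for all Cr2+ barcodes of a library would leave 7.00%, 3.32% and 7.61% without a Prnp UMI at these depths. In Cr2- stroma the barcodes without one (50.4%, 29.3% and 55.2%) were closer to a single rate (49.6%, 24.2% and 49.0%). Over depth, Prnp was higher in the shallowest than in the deepest barcodes of each library, while the middle group varied. In the shallowest of 3 equal groups of Cr2+ barcodes Prnp was 1237, 1313 and 920.5 CPM, in the middle 741, 846 and 1224 CPM, and in the deepest 1009, 472 and 778 CPM. The counting intervals of the shallowest and deepest groups were apart in 2-IC replicate 2 and overlapped in the other libraries.

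Prnp was higher in barcodes with more Cr2. The barcodes with exactly 1 Cr2 UMI (62, 7 and 11), just inside the gate, had 216, 291 and 270 CPM of Prnp. Those with 2 or more (83, 27 and 39) had 1354, 775 and 1076 CPM, and the groups did not overlap. Cr2- stroma as a whole had 126 to 147 CPM, and the Madcam1+ barcodes in it had 203, 271 and 204 CPM. This is a description of how the gate divides the barcodes, and no test was run on it.

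Cr2+ barcodes with an Fc receptor gene had more Prnp than those without. Fcer2a (CD23) and Fcgr2b encode receptors for the Fc part of antibodies. The study found that FDCs in its model held ICs through CR2 alone, and called a part of FCGR2B unlikely. The comparison used Cr2+ barcodes with at least 1% of UMIs from Malat1, an RNA of the nucleus. Prnp was 1401, 602 and 1058 CPM with an Fc gene (51, 11 and 18 barcodes) and 364, 362 and 229 CPM without one (59, 14 and 14 barcodes). Every library was higher with an Fc gene, and the ratio was 3.85, 1.66 and 4.62. By edgeR's quasi-likelihood test the log2 fold change was 1.63 (SE 0.33, Benjamini-Hochberg adjusted p = 0.0267), and 1.05% of 2966 genes were called higher. Without the shared barcodes it was 1.73 (adjusted p = 0.000471 by edgeR).
The call was lost without 2-IC replicate 1 (adjusted p = 0.162 by edgeR), without the 1-IC library (0.0793), without the library block (0.120) and without barcodes with 3 or more UMIs of glia genes (log2 fold change 1.38, adjusted p = 0.237). Cr2 itself was 2.56-fold, 7.89-fold and 2.71-fold higher in the barcodes with an Fc gene, and Cxcl13 was 2.36-fold, 0.379-fold and 1.19-fold, so Cr2 moved with the division. Its part in the result was not tested.

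Of the Cr2+ barcodes, 35, 9 and 18 had less than 1% of UMIs from Malat1. Prnp was 1179, 2005 and 1636 CPM in these and 911, 466 and 759 CPM in the other Cr2+ barcodes, so that the groups did not overlap. The barcodes with little Malat1 were also shallower in each library. They held 140773, 58348 and 55023 UMIs, against 704581, 355975 and 266182 UMIs in the 110, 25 and 32 others. The part of depth in this difference was not tested. The ratio was 1.29, 4.30 and 2.16, and that of Cr2 was 1.62, 1.76 and 1.72. By edgeR's quasi-likelihood test the log2 fold change was 1.05 (SE 0.27, Benjamini-Hochberg adjusted p = 0.0451), with 4.18% of 3205 genes called higher. Without the shared barcodes it was 0.96 (adjusted p = 0.0404 by edgeR).
Without 2-IC replicate 2, where the sum with little Malat1 came from 9 barcodes, it was 0.62 (adjusted p = 0.0982 by edgeR), and with DESeq2 the adjusted p was 0.204. In Cr2- stroma the ratio of the same division was 1.07, 1.15 and 1.77, with intervals that all included 1. With the low-Malat1 barcodes left out of every class, Cr2+ stroma had 712 ± 226 CPM of Prnp (SD, n = 3) and stayed above Cr2- stroma in each library.

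Glia genes moved with Prnp in Cr2+ stroma. The 8 genes summed to 79.3 to 153 CPM in Cr2+ stroma, 5.72 to 7.24 CPM in Cr2- stroma and 18.7 to 50.5 CPM in immune barcodes. The defining glia genes Sox10, Cdh19 and Foxd3 were at 0 in Cr2+ stroma, as was S100b, which the gate excluded. The 6, 4 and 6 Cr2+ barcodes with 3 or more glia UMIs had 1568, 2535 and 1615 CPM of Prnp. Without them Prnp in Cr2+ stroma was 927, 484 and 757 CPM, still above Cr2- stroma in each library, and the log2 fold change was 2.34 (adjusted p = 8.68e-09 by edgeR).

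**Figure D3:**
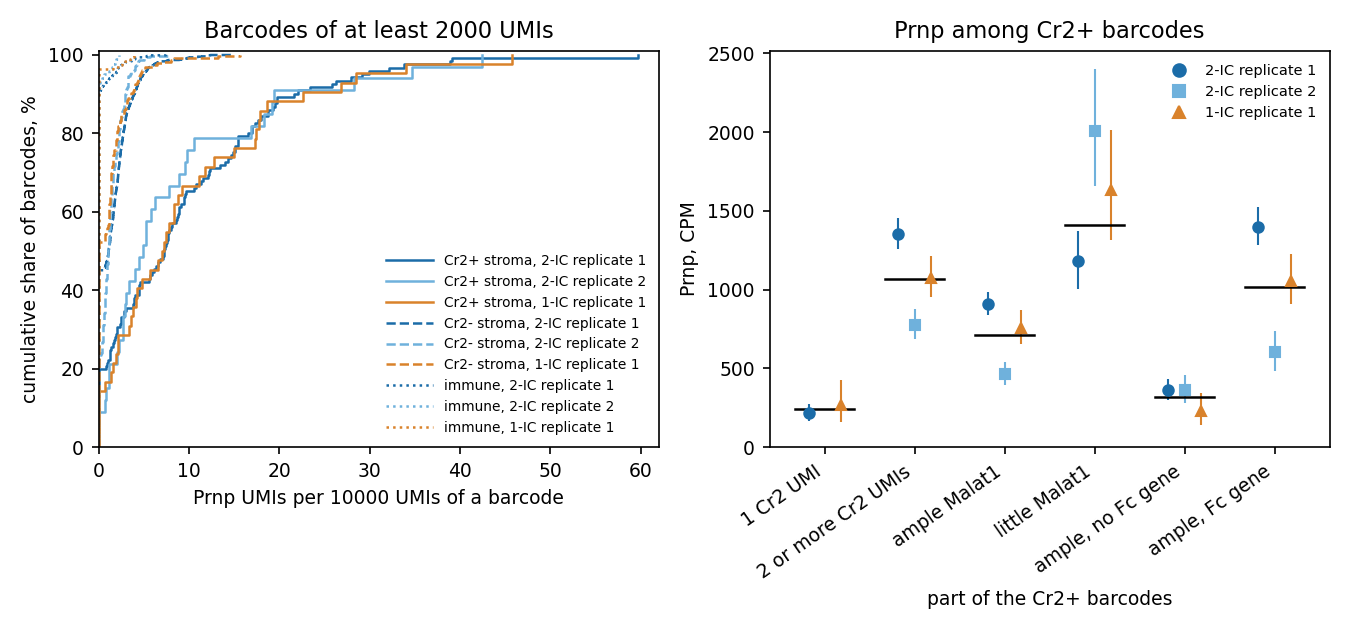
Left, cumulative share of barcodes of at least 2000 UMIs by Prnp UMIs per 10000 UMIs, by class (line type) and library (colour). Right, Prnp CPM in parts of the Cr2+ barcodes, with exact 95% Poisson intervals and black bars at the means over libraries with at least 10 barcodes. Every library is higher with little Malat1 and with an Fc gene, and the 7 barcodes of 2-IC replicate 2 with 1 Cr2 UMI are not drawn.

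Between conditions, Prnp in Cr2+ stroma was 909 CPM (808 to 1020) in the 1-IC library and lay between the 2-IC libraries, at 683 CPM (606 to 767) and 956 CPM (891 to 1024). In Cr2- stroma the 1-IC value was 126 CPM (109 to 144). Its interval held the 127 CPM of 2-IC replicate 2 and overlapped that of 2-IC replicate 1 (147 CPM, 138 to 156). Madcam1+ barcodes had 204 CPM against 203 and 271 CPM. With 1 library in the 1-IC group there is no test of a difference between conditions, and library and condition cannot be told apart. Whether the 2-IC libraries, with their different tags, are one condition is not settled by the labels.

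Genes were also sorted by how closely their levels followed Prnp over the classes. Prnp was high in Cr2+ stroma and low in immune barcodes, so this choice favours genes with the same contrast. Over 10, 9 and 9 classes of the 3 libraries, each with at least 10 barcodes, the Pearson r of log2(CPM + 1) with Prnp was computed for 2885 genes of at least 50 CPM, and genes were ranked by the lowest of the 3 values. Os9, which takes part in the disposal of misfolded proteins from the endoplasmic reticulum, came first (r = 0.94, 0.94 and 0.95). Cd9, a tetraspanin of the cell surface, followed with 0.93, 0.95 and 0.91, and Sox9, a transcription factor found in FDCs, with 0.94, 0.90 and 0.90. These were the 3 genes with every r over 0.9. Others among the first 10 genes were Trf (transferrin), Axl (a receptor for apoptotic cells), Tgfb1i1, Myh11 (smooth muscle myosin), Gm16685 and Clu, which was a gate gene, with lowest values from 0.89 down to 0.88.

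These correlations are descriptions. The points of a library share its suspension and its total depth, and the contrast of stroma with immune barcodes is in each of them. Only 2 of the 10 genes were among the first 10 when barcodes with little Malat1 were left out, 6 when shared barcodes were left out, 7 without the rule on contaminant genes, and 8 without the glia barcodes.

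Levels of the leading genes differed from Prnp in the depth of their contrast. Os9 was 313 ± 51.7 CPM in Cr2+, 168 ± 14.3 in Madcam1+ and 54.0 ± 14.8 CPM in B cell barcodes, a shallower profile than that of Prnp. Sox9 was 302 ± 30.4, 116 ± 38.2 and 4.89 ± 1.59 CPM, and Myh11 247 ± 63.9, 216 ± 67.8 and 2.20 ± 1.09 CPM (SD, n = 3 for all), so that Myh11 in Madcam1+ barcodes lay within the spread of Cr2+ stroma. The log2 fold change in Cr2+ against Cr2- stroma was 2.23 for Sox9, 1.09 for Os9 and 0.54 for Tgfb1i1, given without a test since the classes that ranked these genes include Cr2+ stroma.

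**Figure D4:**
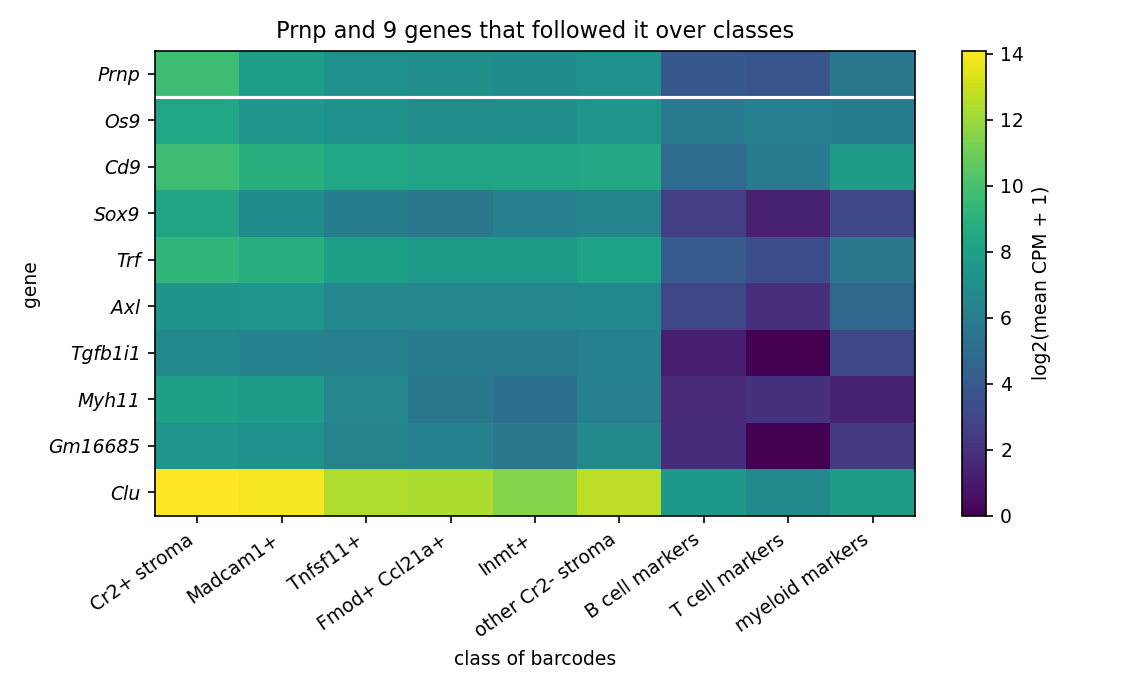
log2(mean CPM + 1) of Prnp (top row) and of 9 genes among the first 10 whose levels followed it, in 9 classes of barcodes. Prnp falls from 849 CPM in Cr2+ stroma to 12.4 CPM in T cell barcodes. All 10 genes are darker (lower) in the 3 immune classes than in Cr2+ stroma, a contrast that the choice of the 9 genes favours.

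Within Cr2+ stroma, other genes followed Prnp from barcode to barcode. With 2000 UMIs drawn from each of 121, 33 and 42 barcodes, Crip1, a small LIM-domain protein, had r = 0.56, 0.60 and 0.57 with Prnp. It was followed by A230065H16Rik (0.57, 0.54 and 0.54), Ctsh, a lysosomal cathepsin (0.60, 0.71 and 0.51), Tmsb4x, which binds actin, Marcksl1, Iscu, Fabp5, Dbi, Srgn and Arsb, whose lowest values lay between 0.46 and 0.38. All 10 were also higher in Cr2+ than in Cr2- stroma. This is given without a test, since the same Cr2+ barcodes were used to choose these genes. Ctsh, for instance, was 1042 ± 264 CPM in Cr2+ and 133 ± 37.7 CPM in Cr2- stroma (SD, n = 3, log2 fold change 2.95).

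Malat1 itself had r = -0.24, -0.48 and -0.45 with Prnp and Cxcl12, a stromal chemokine, -0.46, -0.38 and -0.23. Among the barcodes with ample Malat1 (93, 24 and 28) the r of Malat1 was 0.08, 0.15 and -0.20, and the highest of all genes' lowest values was 0.33 (Ctsh). Ctsh, Tmsb4x and Marcksl1 were the first 3 genes there. Crip1, A230065H16Rik, Iscu, Fabp5, Dbi, Srgn and Arsb were not among the first 20. Fcer2a had 0.35, 0.34 and 0.28 there, Fcgr2b 0.32, 0.44 and 0.20 and Cr2 0.45, 0.23 and 0.19. The barcodes of a library share its RNA background and the values are sparse counts, so that these weak relations are given as descriptions only.

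Genes of the biology of PrPC were read in the same fit of Cr2+ against Cr2- stroma, in which 7.88% of all genes were called higher and 6.16% lower. Of the 3 proteases reported to cleave PrPC, Adam10 was called higher in Cr2+ stroma (118, 60.3 and 56.0 CPM against 47.4, 52.2 and 44.7 CPM in Cr2-), with a log2 fold change of 0.75 (SE 0.23, adjusted p = 0.0328 by edgeR). The call was lost in 8 of 15 alternatives. Adam17 (-0.42, adjusted p = 0.412) and Adam8 (0.65, 0.780) were not called. Of the 29 genes that build and trim the GPI anchor, 22 could be tested and none was called by edgeR in either direction (2 had an unadjusted p under 0.05, and DESeq2 called 0). Their median log2 fold change was 0.00042, beside -0.03 over all genes tested.

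GPI-anchored proteins other than PrPC moved in both directions. Of 24 tested, 7 were called higher and 4 lower in Cr2+ stroma, with a median log2 fold change of -0.37. Sema7a, a semaphorin, was 114 ± 6.25 CPM against 9.24 ± 3.91 CPM (SD, n = 3), with a log2 fold change of 3.50 (adjusted p = 2.90e-08 by edgeR), larger than that of Prnp. Bst1, an ectoenzyme (1.10, adjusted p = 0.000277), Gpc1, a glypican (2.27, 0.000725), Rtn4r, the Nogo receptor (1.75, 0.00925), Cd55, Ncam1 and Gfra2 were also called higher by edgeR. Ly6a (-2.15, adjusted p = 4.88e-06), Ly6e (-0.89, 0.000705), Gpc4 and Gas1 were called lower.

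Proteins reported to bind PrPC were called in both directions. Of 13 tested, 3 were called higher and 6 lower, and the median log2 fold change was -1.08. Adgrg6, a receptor in myelinating glia that PrPC activates, was higher, at 116, 109 and 90.3 CPM against 18.8, 22.9 and 20.3 CPM, without overlap (log2 fold change 2.35, SE 0.22, adjusted p = 1.19e-07 by edgeR). Gpc1 and the adhesion molecule Ncam1 were the others. Apoe, apolipoprotein E, was lower, at 8580, 6046 and 1834 CPM against 22758, 18516 and 13354 CPM (-2.00, SE 0.34, adjusted p = 0.0269 by edgeR, lost in 4 of 15 alternatives), as were Vtn, Cav1, Hspg2, Lamc1 and Rpsa. Vtn encodes vitronectin (-1.99, adjusted p = 1.47e-06), and Rpsa, a ribosomal protein known as the laminin receptor, had a log2 fold change of -0.40 (0.00948) that was lost in 5 of 15 alternatives.

 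Of 19 copper handling genes tested, 7 were called lower by edgeR (Mt1, Mt2, Steap3, Steap4, Lox, Loxl1 and Loxl2) and 1 higher. The one higher was Atox1, a copper chaperone (757 ± 351 CPM against 390 ± 127 CPM, SD, n = 3, log2 fold change 0.89, adjusted p = 0.00383). The lower genes include metallothioneins, metal reductases and lysyl oxidases, which crosslink collagen. DESeq2 called 5 of the 19 genes. The call was lost in 7 of 15 alternatives for Mt1, in 4 of 15 for Atox1 and in 3 of 14 for Steap3. For Steap4, Lox, Loxl1 and Loxl2 it was lost in 1 alternative each.

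Among complement and Fc genes, Fcer2a (log2 fold change 6.16, adjusted p = 2.41e-11 by edgeR), Fcgr2b (5.62, 1.40e-05), Cd55, Cr1l and the gate gene Cr2 were called higher, and Fcgrt was called lower, among 13 tested. C3 (3290 ± 1613 CPM against 8717 ± 1111 CPM) and C4b were not called. Of 12 genes of lymphotoxin and TNF signalling, through which FDCs are maintained, Relb (0.90, adjusted p = 0.00113 by edgeR) and Tnfaip3 (1.08, 0.00307) were called higher and none lower. Among 10 tested genes linked to other amyloids, not all of them precursors, Apoe was called lower. Those called higher were Aplp1 (5.67, adjusted p = 3.11e-09 by edgeR), Sncg, which encodes gamma-synuclein (4.83, 6.25e-09), and Clu. B2m was at 2689 ± 461 CPM against 2834 ± 446 CPM and was not called.

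Genes of the early response, which dissociation of tissue also induces, were lower in Cr2+ stroma, where they summed to 14203 to 21677 CPM against 28978 to 35222 CPM in Cr2- stroma. Of 17 tested, 12 were called lower by edgeR, among them Jun, Fos, Jund and Egr1, and 1 (Hspa1b) higher. Their part in the difference of Prnp was not tested.

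**Figure D5:**
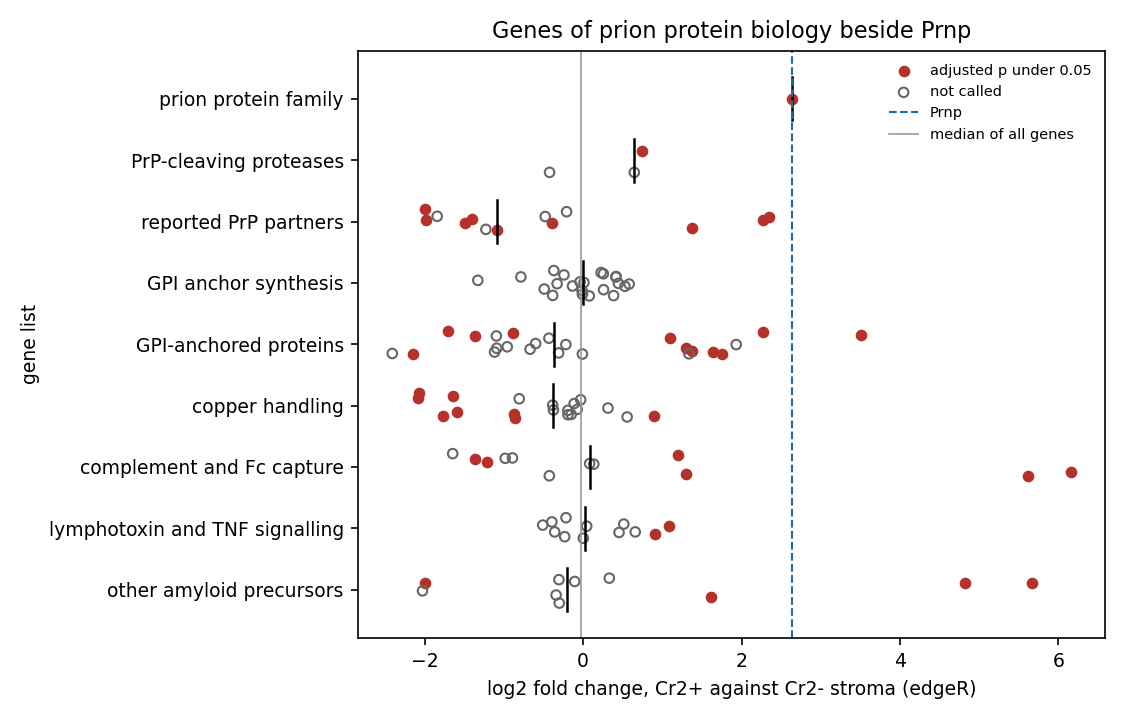
log2 fold change in Cr2+ against Cr2- stroma (edgeR) of each tested gene of 9 lists, with the list median as a black bar. The dashed line marks Prnp at 2.63 and the grey line the median of all genes at -0.03. GPI anchor synthesis genes lie around 0 without a call, and Sema7a, Aplp1, Sncg, Fcer2a and Fcgr2b lie to the right of Prnp. The gate gene Cr2 is left out.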

How the data were processed

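The authors made 10x Genomics 3′ libraries, processed them with CellRanger and GRCm38 (Ensembl release 89), and deposited raw UMI counts per gene and barcode, with no normalization. From these counts, barcodes with at least 200 genes and at most 10% mitochondrial UMIs were placed in classes by marker UMIs, and CPM was computed from the UMIs summed per library and class. The summed counts were tested with edgeR 4.0.16 (TMM, filterByExpr, robust quasi-likelihood test, threshold 0.05 after Benjamini-Hochberg adjustment) in R 4.3.3, with the library as a block. The block was used since each library was 1 suspension divided into classes. Sums held at least 10 barcodes, except 1 of 9 barcodes with little Malat1. DESeq2 1.42.0, other gates and left-out libraries were alternatives, and the fits were tested on simulated data. Levels have exact Poisson intervals at 95%. Detection at equal depth is the exact hypergeometric expectation. Scrublet (scanpy 1.11.5) marked 10 of all 5486 barcodes, too few to have worked, so doublets were not removed. The 1219 barcodes in no class, the 2 endothelial ones and the 973 that failed the filters were left out. Coordinates are from GENCODE M21 and the promoter from RefSeq, both GRCm38. The gene, the lists and the comparisons were chosen with earlier results of these data known. Genes were named by a rule: of each list the 3 with the highest mean CPM and up to 5 called ones with the largest change, and the 10 genes that followed Prnp best over classes and within Cr2+ barcodes. Other genes named in the text were chosen after their values were seen. Some genes of these lists are not reported here.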

Additional observations from a re-analysis of the deposited data

Results flagged for a closer look

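Prnp was also found in barcodes that entered no comparison. Barcodes in no class, nearly all of them (1200 of 1219) with a UMI of a contaminant gene, had 409, 414 and 329 CPM of Prnp where they held a Cr2 UMI (187, 44 and 27 barcodes). Those without Cr2 had 164, 125 and 113 CPM. Barcodes that failed the filters on genes or mitochondrial UMIs had 111 and 60.9 CPM in 2-IC replicate 1 and 2-IC replicate 2, and 0 Prnp UMIs in the 1-IC library, where 3 UMIs would be 80.3 CPM. All these values except the last are above what 3 UMIs give in their sums. The mixture of cells in these barcodes was not tested.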

How the results depend on the processing

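Alternatives that left out shared barcodes or glia barcodes, or set a minimum of 10 barcodes per sum, were chosen after seeing the data. Prnp was called higher in Cr2+ than in Cr2- stroma in all 15 alternatives (log2 fold change 2.17 to 2.90, largest adjusted p 3.55e-05) and lower in immune barcodes in all 15 (-3.00 to -2.66, largest adjusted p 3.63e-06). One of these, the removal of called doublets, took no barcode from the classes and changed nothing. The cause of the changes below was not tested. The library block pairs sums of the same suspension. With no replicate block, 740 genes were called in Cr2+ against Cr2- stroma (554 higher, 186 lower), 161 by Malat1 and 8 by Fc genes, and Prnp lost its call by Malat1 (1.05, adjusted p = 0.0733) and by Fc genes (1.67, adjusted p = 0.120). At 1000 UMIs per barcode 530 genes were called in Cr2+ and 2471 in immune against Cr2- stroma. Leaving out a library gave 1037 to 1211 genes, the fewest without the 1-IC library.
Between little and ample Malat1, Prnp was at 1.00 with DESeq2, 1.27 without the contaminant rule (adjusted p = 0.102) and 0.96 without glia barcodes (adjusted p = 0.0715), none of them called, and at 0.62 to 1.34 without 1 library. Genes called were 172 without glia barcodes, 136 with DESeq2, 463 with no count filter, 54 without the contaminant rule and 145 to 256 without 1 library, against 301. With Fc genes, Prnp was at 1.38 without glia barcodes and 1.41 to 2.00 without 1 library. Genes called were 6 without glia barcodes, 152 with no count filter, 148 without shared barcodes, 137 without the contaminant rule and 44 to 260 without 1 library, against 41.
Detection in Cr2+ stroma was 38.5% without the contaminant rule, 37.9% with ample Malat1, 57.0% with 2 or more Cr2 UMIs, 42.5% without glia barcodes, and 31.3% and 63.9% at 500 and 2000 UMIs. For Cr2- stroma it was 6.91% and 22.5% there, and for immune barcodes 0.719% and 2.42%. The level in Cr2+ stroma was 613 CPM without the contaminant rule and 1069 CPM with 2 or more Cr2 UMIs. The genes that changed sign were not called in the main fit. Adam8 was at -0.055 to 1.06 without 1 library, B2m at 0.0043 at 1000 UMIs, and Ncl at 0.044 without the contaminant rule. Pigp was at 0.033 with no replicate block, 0.029 with only the classes compared, -0.16 to 0.10 without 1 library, 0.0033 without shared barcodes, 0.065 with 2 or more Cr2 UMIs and 0.42 at 1000 UMIs.
Among the other named genes, calls in Cr2+ against Cr2- stroma were lost for Adam10, Rtn4r and Steap3 without 2-IC replicate 1, for Apoe, Atf3, Cav1, Clu, Mt1, Rpsa and Steap3 without 2-IC replicate 2, and for Adam10, Atox1, Klf4, Rpsa and Rtn4r without the 1-IC library.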

Other observations

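Over all classes, the 19, 22 and 9 barcodes with 3 or more UMIs of glia genes had 1205, 744 and 1506 CPM of Prnp, which 19, 16 and 8 of them held, and those among them that were Cr2+ stroma (6, 4 and 6) had 1568, 2535 and 1615 CPM. Counting error alone gives intervals of 1054 to 1371, 676 to 818 and 1246 to 1803 CPM for the former. These are sums over classes. Leaving out such barcodes lowered Prnp in immune barcodes of 2-IC replicate 2 from 17.4 CPM to below 11.9 CPM, the immune level of the 1-IC library. In Cr2- stroma of 2-IC replicate 2 Prnp moved from 127 to 128 CPM. In immune barcodes of the 1-IC library it moved from 11.9 to 12.1 CPM. No test was run on so few barcodes.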
